A study of Homo sapiens with 6 samples.

Results

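The ZNF genes of human chromosome 19 were examined as a set. They were chosen by name: every protein-coding gene of that chromosome in the RefSeq gene table (GRCh38.p14) whose symbol is ZNF followed by a number, a letter after the number being allowed. The rule found 246 genes among 20037 protein-coding genes on chromosomes 1 to 22, X and Y, and the other 1201 protein-coding genes of chromosome 19 served as the comparison. A further 4 symbols with a hyphen (readthrough and divergent transcripts) were placed in neither set. The symbol says only that a protein has zinc fingers or is named for them. Which of the 246 proteins carry a KRAB domain was not analysed here.

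The data were peak lists from ATAC-seq, an assay in which a transposase cuts accessible DNA, in NCI-H1703, an established line of lung squamous cell carcinoma. In 3 libraries, labelled ASO_1 to ASO_3, DLGAP1-AS2, a long non-coding RNA, had been silenced. The other 3, labelled NC_1 to NC_3, were controls of the same line, and the study asked what silencing does to accessible chromatin. All 6 libraries came from a single line and the labels do not say that they were separate cultures, so p-values measure only the spread between these libraries, which may be technical.

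Most zinc finger genes of chromosome 19 arose by tandem duplication and lie in clusters of similar genes. Many encode KRAB zinc finger proteins, whose fingers bind DNA, often in transposable elements, and whose KRAB domain recruits TRIM28 and, with it, histone methyltransferases that repress the bound site. The bodies and 3' ends of many of these genes are known to carry the H3K9me3 mark themselves, while their promoters are commonly active in dividing cells.

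The lists held 121406 to 167966 peaks in the silenced libraries and 91346 to 170882 in the controls, of which 3602 to 4714 lay on chromosome 19. The background coverage implied by height and fold enrichment ran from 0.237 in silenced library 3 to 0.464 in control library 2. Control library 2 listed no peak with a height under 3, whereas the other libraries went down to 2. Heights are the deposited pileups and were not scaled to depth, so libraries are compared below by whether a gene had a peak or by ranks within a list. DLGAP1-AS2 (chromosome 18, 3603737 to 3610089) had no peak within 1 kb of either end in any library. Peak lists hold no RNA levels, so its silencing cannot be checked with them. Of 6 genes of the squamous lineage (TP63, SOX2, KRT5, KRT6A, KRT14 and DSG3), 0 had a gene-end peak in all 6 libraries and 2, KRT6A and KRT14, had none in any. Starts inside the spans of these genes were not examined.

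The start regions of 8 members are printed here because the results below turn on them, either for the motifs they hold or for having a peak or none. Each sequence is the 200 bases just upstream of a RefSeq transcription start (GRCh38.p14), 5' to 3' on the strand of the gene. Capitals mark CCAAT, the box bound by NF-Y, read on either strand (ATTGG), and CCGGAAG, a site of ETS factors, read on either strand (CTTCCGG). ZNF77 and ZNF555 stand for the first cluster along the chromosome, whose starts are dense in CCAAT, and were chosen after their windows had been read.
ZNF77, chr19:2944972-2945171, minus strand: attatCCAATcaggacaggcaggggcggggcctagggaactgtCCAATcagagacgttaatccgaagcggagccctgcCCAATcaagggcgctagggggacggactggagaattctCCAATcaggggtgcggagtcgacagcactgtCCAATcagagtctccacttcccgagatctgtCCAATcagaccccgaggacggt
ZNF555, chr19:2841275-2841474, plus strand: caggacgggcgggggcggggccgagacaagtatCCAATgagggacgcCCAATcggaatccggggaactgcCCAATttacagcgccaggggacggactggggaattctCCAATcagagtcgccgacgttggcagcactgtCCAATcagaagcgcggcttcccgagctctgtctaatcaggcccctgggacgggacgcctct

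ZNF77 held 6 CCAAT boxes in this stretch and ZNF555 held 5, and neither held CCGGAAG. Peaks lay over both starts in all 6 libraries.

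The next 4 come from related starts in the fourth cluster. ZNF91 and ZNF43 had a peak over the start in all 6 libraries, and ZNF208 and ZNF257 had none in any.
ZNF43, chr19:21836183-21836382, minus strand: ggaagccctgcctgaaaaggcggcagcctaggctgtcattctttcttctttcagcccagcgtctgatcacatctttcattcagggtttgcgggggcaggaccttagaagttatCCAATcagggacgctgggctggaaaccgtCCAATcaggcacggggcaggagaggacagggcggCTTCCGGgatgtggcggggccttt
ZNF91, chr19:23395472-23395671, minus strand: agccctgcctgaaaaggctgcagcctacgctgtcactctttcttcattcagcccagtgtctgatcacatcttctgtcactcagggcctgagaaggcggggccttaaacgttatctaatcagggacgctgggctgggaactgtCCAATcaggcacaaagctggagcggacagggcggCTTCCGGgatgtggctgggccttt
ZNF208, chr19:22010944-22011143, minus strand: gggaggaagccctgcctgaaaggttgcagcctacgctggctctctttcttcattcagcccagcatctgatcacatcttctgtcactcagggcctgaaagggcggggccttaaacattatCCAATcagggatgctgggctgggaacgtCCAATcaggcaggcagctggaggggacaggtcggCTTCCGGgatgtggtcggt
ZNF257, chr19:22052284-22052483, plus strand: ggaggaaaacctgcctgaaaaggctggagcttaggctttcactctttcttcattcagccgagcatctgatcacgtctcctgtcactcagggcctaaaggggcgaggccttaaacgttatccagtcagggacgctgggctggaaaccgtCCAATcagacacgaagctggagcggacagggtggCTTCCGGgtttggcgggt

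All 4 stretches held CCAAT and 1 CCGGAAG site, written CTTCCGG, that ended 18 bases before the start in ZNF43 and ZNF91, 13 before it in ZNF208 and 12 before it in ZNF257. Over their full windows, which reach from 250 bases before to 50 after the start, ZNF208 and ZNF91 were 86.0% identical. The same motifs thus stood in starts with a peak and in starts without one.

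ZNF8 and ZNF154 lie in the last cluster, towards the end of the long arm. ZNF8 was among the 5 members with the tallest peaks, and ZNF154, a gene often found methylated in tumours, had no peak at its ends.
ZNF8, chr19:58278755-58278954, plus strand: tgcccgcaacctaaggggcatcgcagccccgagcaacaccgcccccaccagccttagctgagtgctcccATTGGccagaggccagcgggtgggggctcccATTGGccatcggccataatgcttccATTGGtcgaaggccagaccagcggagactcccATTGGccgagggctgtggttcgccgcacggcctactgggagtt
ZNF154, chr19:57709205-57709404, minus strand: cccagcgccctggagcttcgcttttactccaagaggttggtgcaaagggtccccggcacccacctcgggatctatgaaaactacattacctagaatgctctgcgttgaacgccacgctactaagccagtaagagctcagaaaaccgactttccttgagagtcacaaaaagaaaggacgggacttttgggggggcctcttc

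ZNF8 held 4 CCAAT boxes, all on the opposite strand, and ZNF154 held neither motif in these 200 bases.

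A gene was counted as having a gene-end peak in a library when the midpoint of a peak lay within 1 kb of either end of its span. In the silenced libraries 201, 202 and 199 of the 246 ZNF genes had one, and in the controls 199, 196 and 201. As shares these were 79.7% to 82.1% of the ZNF genes, against 61.3% to 66.8% of the other genes of chromosome 19 and 65.1% to 70.3% of all protein-coding genes. The ZNF genes were higher by 16.3 percentage points on average, in 6 of 6 libraries (two-sided exact sign-flip permutation test over libraries, p = 0.031, the smallest that 6 libraries can give, and the same after Benjamini-Hochberg adjustment over 3 comparisons). The test takes the genes as given and measures only the spread between libraries. The difference was 25.5 points among genes with no end within 2 kb of another gene's end and 25.5 points with peaks at an FDR of at most 1e-05, but 7.95 points with a window of 2 kb.

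Calls were close to all or nothing. A peak was present in all 6 libraries at 193 ZNF genes (78.5%) and in none at 30 (12.2%), which left 23 (9.35%) in between. Among the other genes of the chromosome 53.1% had a peak in all 6 libraries and 28.1% were in between. The 23 ZNF genes in between had peaks of a height of at most 6 (median 3), close to the lowest heights listed, and 13 of them were called in 1 library. In the other genes in between the height reached 101. Other genes also have more neighbours: 55.0% of them had an end within 2 kb of another gene's end, against 26.8% of the ZNF genes, and how far this contributes to the calls in between was not tested.

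**Figure D1:**
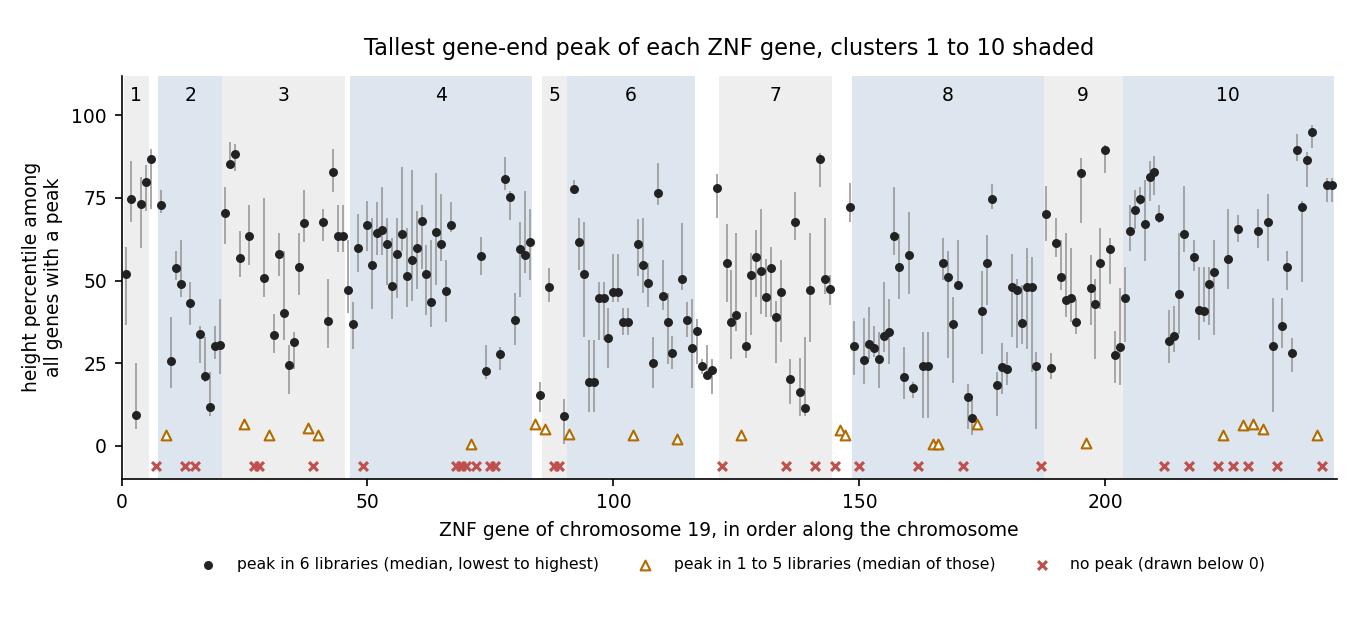
The 246 ZNF genes in order along chromosome 19 (x axis, position in the order) against the percentile of their tallest gene-end peak among all protein-coding genes with a gene-end peak in the same library (y axis, 100 is the tallest), with clusters 1 to 10 shaded. Dots are medians and lines the lowest to highest of 6 libraries for the 193 genes with a peak in all, triangles the 23 genes with a peak in 1 to 5 libraries and crosses the 30 genes with none. The genes in between sit near 0, and the blocks of clusters 4 and 10 hold 7 crosses each.

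Over all genes with a peak in a library, the height at ZNF genes was close to that at other genes. The median height at ZNF genes with a peak was 29, 35 and 17 in the silenced libraries and 28, 33 and 30 in the controls. The other genes of chromosome 19 had medians of 31, 33 and 16.5 in the silenced libraries and 30, 36 and 29 in the controls. Silenced library 3 was the lowest for both sets. Ranked from 0 to 100 among all protein-coding genes with a gene-end peak in the library, the median ZNF gene stood at a percentile of 44.9 to 51.8, and the median of the other genes at 46.3 to 51.2. Among genes with a peak in all 6 libraries the ZNF genes ranked lower than the others in every library. Their median rank scores, described below, were -0.24, -0.20 and -0.03 with silencing and -0.34, -0.30 and -0.24 in controls, against -0.05 to 0.09 for the others.

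The tallest gene-end peaks by median percentile were those of ZNF584, ZNF471, ZNF8, ZNF823 and ZNF557. ZNF584 (chr19:58401558-58418327, plus strand) had heights of 83, 115 and 60 in the silenced libraries and 107, 130 and 105 in the controls. This peak was not over its RefSeq start window, which lay inside the span and had heights of 40, 54 and 32 against 35, 53 and 41. At ZNF471, which has been described as a tumour suppressor silenced by methylation, gene-end heights were 74, 92 and 39 with silencing and 84, 93 and 87 without. The gene-end peaks of both genes ranked lower in every silenced library than in any control library. Scores without overlap between groups, in either direction, were found at 10.6% of all genes tested. Neither gene passed the comparison between groups described below (limma adjusted p = 0.940 for ZNF471). ZNF8 (chr19:58278955-58302791), whose start is printed above, had heights of 74, 97 and 62 against 76, 97 and 79, and its groups overlapped.

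The lowest gene-end peaks present in all 6 libraries were those of ZNF468, ZNF792, ZNF556, ZNF233 and ZNF561. ZNF556 (chr19:2867335-2883445) had heights of 6, 15 and 3 in the silenced libraries and 4, 7 and 9 in the controls. It lies 6864 bp beyond ZNF555 in the first cluster, where ZNF555 had heights of 51, 63 and 44 with silencing and 54, 55 and 62 without. Neighbours in a cluster could thus differ several-fold in every library.

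Peaks lay at the start of the gene and seldom at its other end. The start side is known for the 216 ZNF genes with a RefSeq start window, 116 of them on the plus strand and 100 on the minus strand. A peak lay within 1 kb of the start end in 79.6% to 81.0% of them per library and within 1 kb of the far end in 3.70% to 11.1%. For the other genes of chromosome 19 these shares were 56.1% to 62.3% and 21.3% to 24.4%. The far-end share of the ZNF genes was lower by 14.9 points, in 6 of 6 libraries (exact sign-flip permutation test, p = 0.031, adjusted 0.031).

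The start-end peaks of ZNF genes were also tightly placed. Their midpoints had medians between 56 bp upstream and 7.5 bp upstream of the start across the 6 libraries, and 87.9% to 91.3% of them lay within 250 bp of it. At the other genes 64.4% to 67.8% did, with medians of 84.3 to 115 bp upstream. The ZNF peaks had median lengths of 432 to 672 bp, against 414 to 566 bp at the other genes. Peaks shared between neighbouring ZNF genes were few: 14 to 16 members per library counted a peak together with another member.

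**Figure D2:**
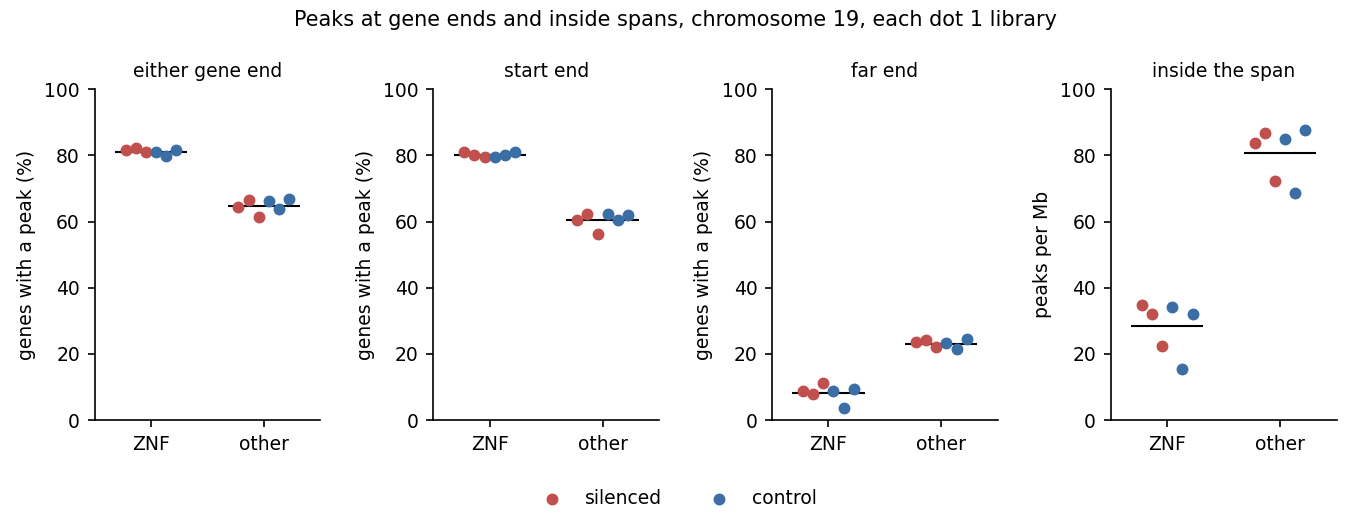
Share of genes with a peak within 1 kb of either end, of the start end and of the far end (y axis, percent), and peaks inside spans (y axis, peaks per Mb), for ZNF genes and other protein-coding genes of chromosome 19. Each dot is 1 library, red for silenced and blue for control, and the line is the mean of 6. The ZNF genes stand above the others at the start (79.6% to 81.0%) and below them at the far end and inside the span, with red and blue dots mixed.

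Another look at the start used the RefSeq start windows themselves, which can include starts inside the span. A gene counted as open in a library when any peak overlapped any of its windows. Of the 216 ZNF genes with a window, 189 (87.5%) were open in all 6 libraries and 20 in none. Among the other genes of chromosome 19 with a window 47.0% were open in all 6, and among all protein-coding genes 56.2%. The mean difference between the ZNF genes and the others of the chromosome was 32.2 points, higher in 6 of 6 libraries (exact sign-flip permutation test, p = 0.031).

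Some genes without a peak at the ends of the span were open at a start inside it. Of the ZNF genes with a gene-end peak in fewer than 6 libraries, 20 were open at a RefSeq window in all 6. The table gives 11 of the 20 a single window and 9 several. ZNF331 (chr19:53503235-53580269), an imprinted gene often methylated in tumours, had no peak within 1 kb of its ends in any library, but an internal start had heights of 61, 59 and 31 with silencing and 56, 57 and 57 without. ZNF599 had no gene-end peak either, and its window had heights of 39, 56 and 26 against 46, 40 and 47. ZNF112 behaved alike, with window heights of 27, 34 and 15 against 43, 47 and 29. The run of ZNF563, ZNF442 and ZNF799 in the third cluster, each with a gene-end peak in 0 or 1 library, was open at a window in all 6 libraries in all 3 genes.

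Among the 216 genes with a start window, 14 had a peak neither at an end nor at a window: ZNF177, ZNF560, ZNF439, ZNF69, ZNF208, ZNF257, ZNF723, ZNF296, ZNF577, ZNF154, ZNF586, ZNF587, ZNF135 and ZNF132. ZNF296 lay outside the clusters and the others came from 5 of them. The nearest peak midpoint in any library was 6044 bp from an end of ZNF208 and 3894 bp from an end of ZNF257. At ZNF586 it was 1198 bp away and at ZNF296 it was 1070 bp away, just beyond the 1 kb limit. A further 7 genes without a start window in the table (ZNF506, ZNF676, ZNF98, ZNF728, ZNF30, ZNF610 and ZNF600) had no gene-end peak, and for ZNF676 the nearest midpoint was 25959 bp away. Of these 7, ZNF30, ZNF610 and ZNF600 held an inside region called in all 6 libraries. At ZNF30 its heights were 33, 38 and 14 with silencing and 23, 23 and 26 without. Whether these regions are starts of the 3 genes was not tested.

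ZNF genes with few CpG at the start were mostly open too. CpG was counted in 1 window per gene, that nearest the start end of its span. A gene counted as open when a peak overlapped any of its windows. The median ZNF window held 20 CpG (all protein-coding genes 22), 20 in genes open in all 6 libraries and 14 in those open in 0 or 1. Over all protein-coding genes the contrast was wider, with medians of 27 in open genes and 6 in genes open in 0 or 1. With 0 to 9 CpG in the counted window, 12 of 15 ZNF genes (80.0%) were open in all 6 libraries. The shares were 19 of 257 (7.39%) for other genes of chromosome 19 and 14.2% for all protein-coding genes. With 10 to 19 CpG they were 86.0% of 86 ZNF genes, 35.9% of the others and 57.5% of all. With 20 to 29 CpG they came to 89.7%, 74.1% and 79.9%. Of the 15 ZNF genes with 0 to 9 CpG, 9 are related copies in cluster 4, all open, and 3 of the other 6 were open. Of the 12 open genes, ZNF574, ZNF112 and ZNF682 have several windows, so their open window may not be the counted window. These shares are descriptions over genes, with no test.

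**Figure D3:**
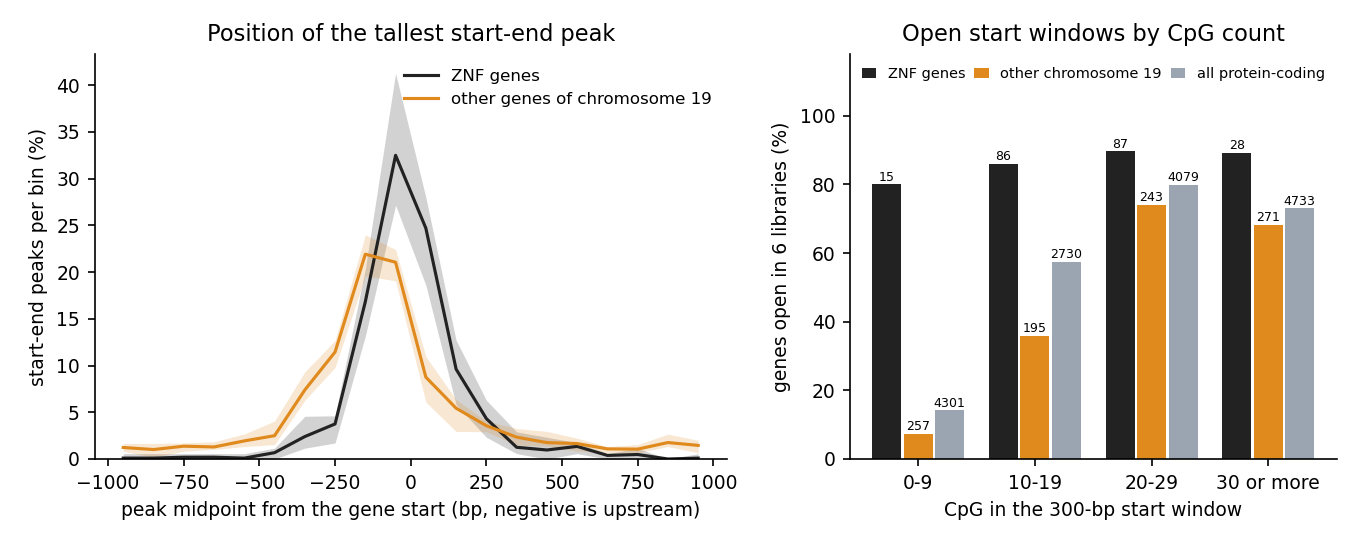
Left, position of the tallest start-end peak: midpoint relative to the gene start (x axis, bp, in bins) against the share of such peaks (y axis, percent), as the mean over 6 libraries with a band from lowest to highest, for ZNF genes and other genes of chromosome 19. Right, share of genes open in all 6 libraries over any start window (y axis, percent), with the number of genes above each bar. The x axis is the number of CpG in the window nearest the start end of the gene. The ZNF bars stay between 80.0% and 89.7%, and the others fall to 7.39% and 14.2% at low CpG.

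Motifs were counted in the same windows on both strands. CCAAT occurred in 117 of 216 ZNF windows (54.2%), against 36.4% of all 15843 windows of this length and 37.4% of those of other chromosome 19 genes. CCGGAAG was found in 97 (44.9%), against 14.2% and 12.8%. GGGCGG, the box of SP and KLF factors, was found in 67.1% against 58.3% (65.7% of the other chromosome 19 windows), and the TATA box TATAAA in 2.31% against 9.75% (8.07%). GGAATG, the core site of TEAD factors, through which YAP acts, stood in 15.7% of ZNF windows and 11.8% of all. TGANTCA, the AP-1 site, stood in 6.48% and 5.70%. Among genes open in all 6 libraries GGGCGG was less frequent in ZNF genes, at 67.2% against 72.2% over all protein-coding genes. The other motifs named kept their direction there. CCAAT stood in 54.0% against 39.7%, CCGGAAG in 43.9% against 21.5% and TATAAA in 2.65% against 5.09%. For GGAATG the shares were 15.3% and 10.4%, and for TGANTCA 6.35% and 3.75%. Within the ZNF genes, CCAAT was present in the counted window of 54.0% of genes open in all 6 libraries at any window. It was present in 60.9% of the 23 genes open in 0 or 1, and CCGGAAG in 43.9% and 52.2%. A match is a run of letters and no evidence of binding.

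The motifs went with the cluster. CCAAT was in all 29 windows of cluster 4, all 5 of cluster 1 and 22 of 24 in cluster 3, but in 6 of 25 in cluster 6 and 5 of 19 in cluster 7. CCGGAAG was in 21 of 29 windows of cluster 4 and 27 of 40 of cluster 10, and in 0 of 5 in cluster 1 and 2 of 24 in cluster 3. Members of a cluster share sequence by descent: the windows of cluster 4 had a median pairwise identity of 75.8% over 406 pairs, from 48.4% to 91.0%. They are therefore not independent of each other. How reads that fit several of these copies were placed is not given in the sources used here, so heights at the most similar genes are uncertain.

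Along the chromosome, members no more than 500 kb apart formed 10 clusters of at least 5 genes that held 232 of the 246, with 14 outside. The largest were cluster 10 (57.2 to 58.5 Mb, 43 genes), cluster 8 (51.6 to 53.6 Mb, 39 genes) and cluster 4 (19.7 to 24.1 Mb, 37 genes). Gene-end peaks in all 6 libraries were present at 5 of 5 genes in cluster 1, 15 of 16 in cluster 9 and 23 of 26 in cluster 6. The counts were 29 of 37 in cluster 4, 31 of 43 in cluster 10 and 2 of 5 in cluster 5. Clusters 4 and 10 each held 7 genes with no gene-end peak in any library. Against the other ZNF genes the share with a gene-end peak was higher in 6 of 6 libraries in clusters 1, 6, 7 and 9 (by 19.2, 11.7, 3.99 and 16.8 points) and lower in 6 of 6 in clusters 3, 4, 5 and 10 (-5.01, -2.75, -38.6 and -5.83 points). Each of these 8 had an adjusted p of 0.0391 over 10 clusters in the exact sign-flip permutation test. Here and for the heights below, the test takes the genes as given and measures only the spread between libraries. Mostly the same genes were called in every library, so small differences, such as those of clusters 4 and 7, rest on few genes.

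Clusters also differed in height. The median percentile of height per library was 59.8 to 81.3 in cluster 1, 56.5 to 63.4 in cluster 10, 52.3 to 69.0 in cluster 4 and 51.4 to 69.5 in cluster 3. It was 29.7 to 34.7 in cluster 8 and 29.6 to 41.7 in cluster 2. Against the other ZNF genes, clusters 1, 3, 4 and 10 were higher in 6 of 6 libraries, by 21.1, 12, 13.2 and 14 percentile points. Clusters 2, 5, 6, 7 and 8 were lower in 6 of 6, with mean differences of -16.1, -24.5, -8.74, -2.74 and -18.7 points. Each of these 9 gave p = 0.031 and an adjusted p of 0.0347 over 10 clusters in the exact sign-flip permutation test, and cluster 9 gave 0.656. Cluster 5 rests on 2 or 3 genes with a peak.

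In cluster 4, the longest of the 10, genes with few or no gene-end calls lay side by side. ZNF208, ZNF257, ZNF676, ZNF729 and ZNF98, neighbours in that order, had a gene-end peak in 0 or 1 library each. ZNF723 and ZNF728 formed a second such run. ZNF676, ZNF729, ZNF98 and ZNF728 have no RefSeq start window, so they were not checked for a peak over a start. Of the 29 cluster 4 genes with a start window, 26 were open in all 6 libraries and 3 (ZNF208, ZNF257 and ZNF723) in none. The cluster also had the fewest CpG, with a median of 10 per window.

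**Figure D4:**
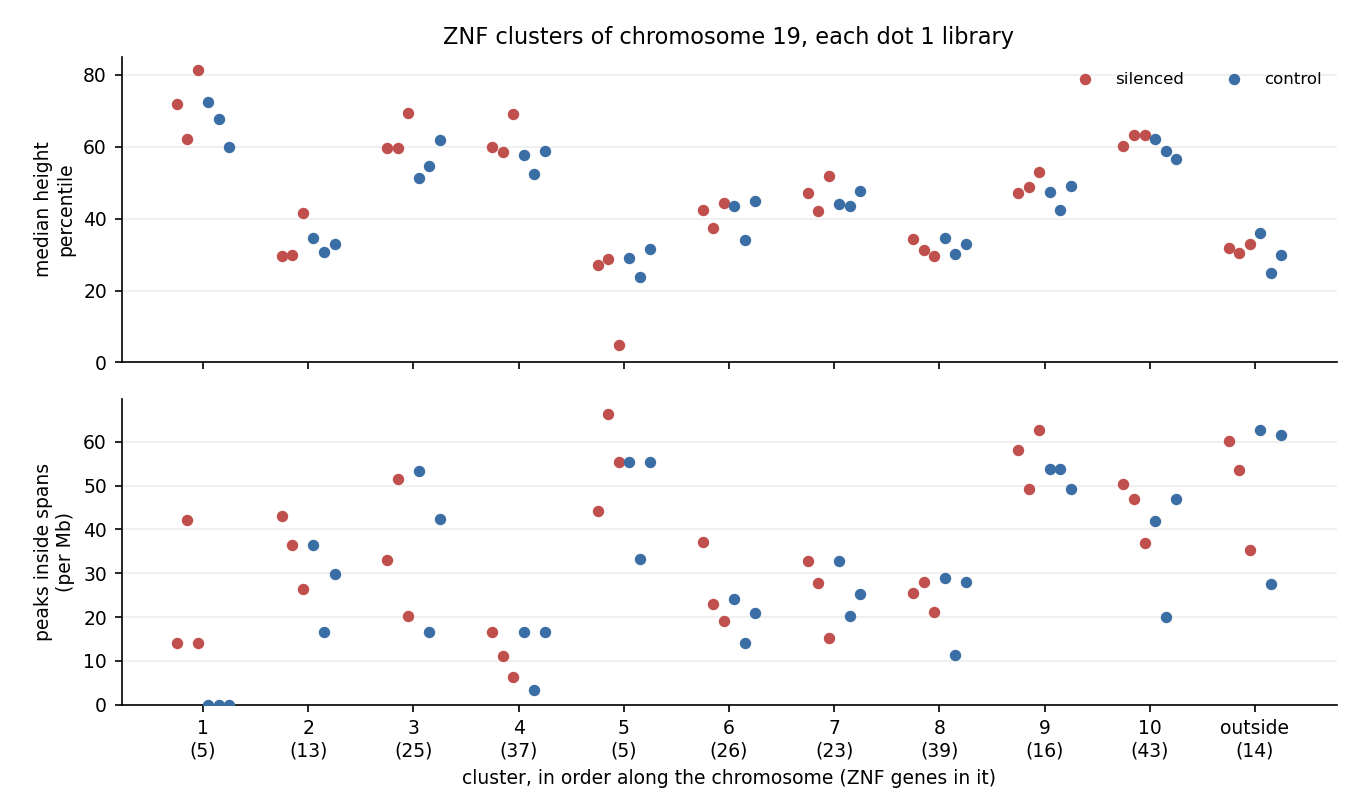
Clusters of ZNF genes in order along the chromosome (x axis, number of genes in brackets) with the median height percentile of genes with a peak (upper y axis) and the peaks inside spans away from both ends (lower y axis, peaks per Mb). Each dot is 1 library, red for silenced and blue for control. Clusters 1, 3, 4 and 10 have the higher percentiles, and cluster 4 has few peaks inside spans (3.47 to 16.6 per Mb).

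Inside the spans, more than 1 kb from both ends, the ZNF genes held few peaks. The 6.57 Mb of such sequence held 34.7, 32 and 22.2 peaks per Mb in the silenced libraries and 34.1, 15.5 and 32 in the controls. In the other genes of chromosome 19 the density was 68.8 to 87.6 per Mb. The ZNF density was lower by 52.3 per Mb on average, in 6 of 6 libraries (exact sign-flip permutation test, p = 0.031, adjusted 0.031). With peaks at an FDR of at most 1e-05 the ZNF genes had 6.40 to 8.07 per Mb and the others 15 to 26.9. Cluster 4 had 3.47 to 16.6 per Mb, below the other ZNF genes by 21.3 per Mb on average in 6 of 6 libraries (p = 0.031, adjusted 0.0625 over 10 clusters in the exact permutation test). Cluster 8 was also lower in 6 of 6 libraries (-5.55 per Mb), and clusters 5, 9 and 10 were higher in 6 of 6 (by 23.6, 26.9 and 13.3 per Mb), each with the same p and adjusted p, so none of these 5 passed after adjustment.

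Inside peaks had a median height of 3 in 5 libraries and of 12 in control library 2, which listed fewer of them. Merged over libraries they made 680 regions, of which 531 (78.1%) were called in 1 library and 53 (7.79%) in all 6. Over all merged regions of chromosome 19 these shares were 62.2% and 15.7%. Of these 53, 37 overlapped a RefSeq start window of the gene they lay in, that is, they lay at an internal start, and 14 overlapped no RefSeq window of any gene. The tallest was at ZNF574 (chr19:42075558-42076327), with heights of 99, 129 and 65 in the silenced libraries and 93, 134 and 119 in the controls. The start of ZNF254 lay 42702.5 bp from the nearest gene end (chr19:24086863-24087668) and had heights of 58, 75 and 39 against 66, 67 and 63.

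ZNF536, ZNF331 and ZNF875 were the members named for the most inside regions called in all 6 libraries. ZNF536, a repressor of neuronal differentiation and the longest of the 3, had 4 in a span of 487995 bp. They were low: at chr19:30498716-30499051 the heights were 11, 9 and 6 with silencing and 13, 12 and 14 without. ZNF331 had 3, of which 2 overlapped its start windows and the third (chr19:53537484-53538568) had heights of 13, 11 and 4 against 8, 13 and 13. ZNF875 had 2, as did ZNF584, ZNF787 and ZNF600. The tallest inside region away from any start window lay in ZNF568 (chr19:36972977-36973718), with heights of 21, 40 and 18 against 35, 41 and 38.

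Some members are known as repressors of retroelements or as other silencing factors, and 6 of the 8 on this list (75%) had a gene-end peak in all 6 libraries, near the 78.5% of all ZNF genes. ZNF91, which represses SVA and L1 elements, had heights of 55, 59 and 33 with silencing and 47, 65 and 57 without. ZNF93, which binds L1 elements, had 27, 52 and 26 against 37, 30 and 33. ZNF274, which recruits SETDB1 to the 3' ends of other ZNF genes, had 33, 42 and 15 against 29, 45 and 35. The groups overlapped at all 3. ZNF85 had 34, 38 and 24 against 25, 36 and 27 and ranked higher in every silenced library than in any control (limma adjusted p = 0.932). ZNF43 and ZNF675 had peaks in all 6 libraries too. ZNF257 had none, and ZNF420, a repressor of p53 target genes, had a gene-end peak in 1 library but an open window in all 6, with heights of 24, 31 and 16 against 24, 39 and 22.

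Of the 16 members listed as often methylated in tumours, 11 (68.8%) had a gene-end peak in all 6 libraries, against 193 of 246 (78.5%) of all members. ZNF132, ZNF154, ZNF331 and ZNF577 had none, and ZNF671 had 1, in control library 3, with a height of 3. The windows of ZNF132, ZNF154, ZNF577 and ZNF671 were open in 0 libraries, whereas that of ZNF331 was open in all 6. ZNF582, one of the 11, had heights of 36, 35 and 17 in the silenced libraries and 27, 30 and 22 in the controls. At ZNF549 they were 37, 54 and 22 against 38, 70 and 46. ZNF382 and ZNF529, whose starts overlap, counted the same low peak, with heights of 10, 20 and 4 against 11, 14 and 9. ZNF544, ZNF568, ZNF583, ZNF667, ZNF677 and ZNF682 had a peak in all 6 as well. DNA methylation was not measured.

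The partners of KRAB zinc finger proteins were counted in the same way. Of 24 genes of the repressor machinery, 23 had a gene-end peak in all 6 libraries. The exception was UHRF1, a reader of hemimethylated DNA, with no gene-end peak in any. Only the ends of its span were examined, so a peak at a start inside the span would be missed. Over all protein-coding genes 58.0% had a gene-end peak in all 6. TRIM28, the KRAB corepressor, had heights of 79, 117 and 47 against 91, 101 and 83, and SETDB1, the H3K9 methyltransferase it recruits, had 77, 82 and 56 against 88, 93 and 79. None of the 23 passed the comparison between groups described next.

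Silencing was compared with control in 4 ways. The number of ZNF genes with a gene-end peak averaged 2 higher in the silenced libraries (201, 202 and 199 against 199, 196 and 201), a difference within the spread between libraries (two-sided exact permutation test of 3 against 3, p = 0.5, adjusted 0.7 over 2 measures). The smallest p this design allows is 0.1. The density of inside peaks averaged 2.44 per Mb higher with silencing (exact permutation test, p = 0.7, adjusted 0.7), and changed sign when either of 2 libraries was left out. It was -3.4 per Mb without control library 2, the shortest list, and -0.102 without silenced library 1. For no cluster did the share of genes with a peak or the inside density pass the test between groups (exact permutation tests, adjusted p = 1 for each). In cluster 1 the inside density was 14, 42.1 and 14 per Mb with silencing and 0 in all 3 controls, which rests on 5 peaks over 3 libraries.

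No ZNF gene had a gene-end peak in the 3 silenced libraries alone or in the 3 controls alone. Over all protein-coding genes 56 of 20037 were, 17 only with silencing and 39 only in controls, a background of 0.279%. Without control library 2, 1 member met this rule: ZNF491 (chr19:11798523-11808503), with a height of 4 in control libraries 1 and 3 and no peak elsewhere. Among the inside regions of ZNF genes 1 was found in the 3 controls only and 0 in the silenced libraries only, against a background of 0.326% over all merged regions of chromosome 19. That region lies in ZNF69 (chr19:11963907-11964206) and had heights of 3, 5 and 3.

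Heights were then compared gene by gene as rank scores. Within each library the tallest gene-end peaks of the 11623 protein-coding genes with one in every library were ranked and turned into normal scores, so that a score of 0 is the median gene, and the scores were fitted with limma. Of these genes 1 (0.0086%) passed an adjusted p of 0.05, MTMR4 on chromosome 17, and 0 of the 193 ZNF genes did. The smallest adjusted p of a ZNF gene was 0.932. At an unadjusted p under 0.05 there were 10 ZNF genes (5.18%), against 613 of all genes (5.27%), so the share among ZNF genes was near the background. All 10 scored higher with silencing, but with fold enrichment in place of height 3 of 8 such ZNF genes did.

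The 3 ZNF genes with the largest score differences towards silencing were ZNF430, ZNF737 and ZNF701. ZNF430 (chr19:21020657-21060050) had heights of 42, 40 and 40 in the silenced libraries and 30, 32 and 37 in the controls, a score difference of 0.57 (SE 0.230, limma adjusted p = 0.932). ZNF737 had 41, 36 and 21 against 23, 33 and 23, a difference of 0.55 (SE 0.175, limma adjusted p = 0.932), and its scores did not overlap between groups. ZNF701 had 37, 36 and 18 against 31, 30 and 15, with a score difference of 0.53, again with no overlap of scores. In heights, silenced library 3 was the lowest of the 6 only at ZNF737, where control libraries 1 and 3 were close to it.

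In the other direction stood ZNF880 and ZNF528, which lie end to end and share a peak, and ZNF468. The shared peak had heights of 19, 5 and 5 in the silenced libraries and 13, 19 and 14 in the controls, a score difference of -0.42 (SE 0.321, limma adjusted p = 0.940). Silenced library 1 was as high as the highest control, so the groups overlapped. The shared peak lay over the start window of ZNF528. The start window of ZNF880, inside its span, had another peak, with heights of 21, 30 and 14 against 12, 22 and 27. ZNF468 had 3, 4 and 4 against 8, 10 and 4, a difference of -0.41 on peaks near the lowest heights listed. None of these genes passed the test.

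Scores did not overlap between groups at 22 of the 193 ZNF genes (11.4%), against 10.6% of all genes tested. Silencing was higher in 18 of the 22 and control in 4. The split by direction was not counted over all genes tested, so it has no background here. Across the 193, 137 had a higher mean score with silencing and 56 a lower one (71.0% higher), with a median difference of 0.11, against 51.0% and a median of 0.0043 over all genes tested and 61.0% and 0.06 over the other genes of chromosome 19. This lean depended on the measure: with fold enrichment in place of height 96 were higher and 97 lower, with a median of -0.0032. Without silenced library 3, the library of lowest background coverage, 113 were higher and 80 lower and the median was 0.03. The part of coverage in this lean was not tested.

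**Figure D5:**
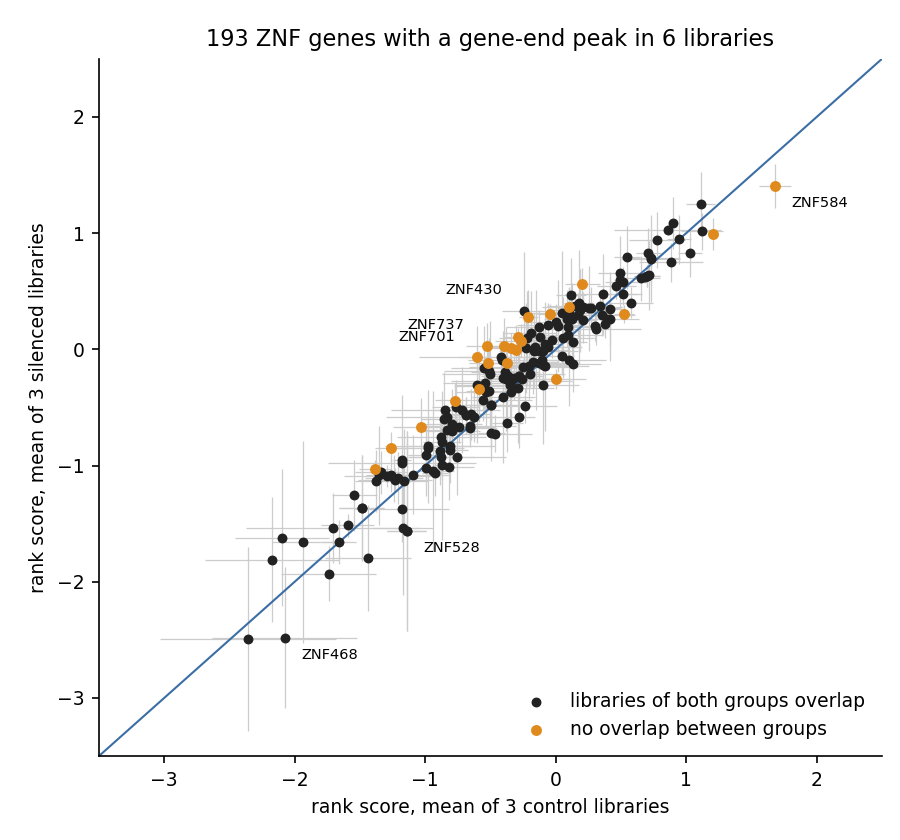
Rank score of the tallest gene-end peak for the 193 ZNF genes with a peak in 6 libraries, mean of 3 control libraries (x axis) against mean of 3 silenced libraries (y axis), with bars of 1 SD over 3 libraries and the line of equality. Orange marks the 22 genes whose scores do not overlap between groups, 18 of them above the line and 4 below it. The points follow the line, and 0 of 193 passed the adjusted threshold.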

How the data were processed

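ATAC-seq peak lists of 3 silenced and 3 control libraries of NCI-H1703 were used as deposited, each list made from a single library as far as its peak names show. Per the submitters' processing notes the tools included Trimmomatic 0.36, Bowtie2 2.2.6, Picard 2.8.2, MACS2 2.1.1 and bedtools 2.25.0 with build GRCh38. Their parameters, the handling of reads with several placements, duplicate removal and the shift of read ends are not given in the sources used here. Per the file headers each peak has a fold enrichment (a ratio), a p-value, an FDR (a q-value type of adjusted p-value), a pileup signal, here called height, and a length in bp. These are the authors' values. The largest deposited p-value was 0.00987 in every list. Depth per library is not listed, and the precision of a height is limited by its low counts.

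Groups came from the labels. The members and lists were chosen with earlier results of these data known. Spans and 300-bp start windows came from RefSeq (GRCh38.p14). Of the 246 members, 216 matched a start window, and the strand of the other 30 was not used. A gene-end peak has its midpoint within 1 kb of a span end, and the tallest was kept. Inside peaks lie further than 1 kb from both ends. Percentiles run over protein-coding genes with a gene-end peak in the library. Rank scores were fitted with limma 3.58.1 (R 4.3.3) without a replicate block, adjusted over 11623 genes, and the fit was tested on simulated data. Other tests were exact permutation tests in Python 3.11.15 (scipy 1.17.1). No 2 libraries held the same list: at most 0.0887% of intervals were identical between any 2.

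Genes were named by these rules: the members of the repressor and methylated lists; up to 10 members with no gene-end peak, longest first (ZNF69, ZNF577, ZNF676, ZNF331, ZNF208, ZNF600, ZNF560, ZNF599, ZNF723 and ZNF112); the 5 tallest and 5 lowest; the 3 largest score differences each way; the 3 with most inside regions called in all 6 libraries; and machinery genes not called in every library. Other names were chosen after their values were seen. The split by KRAB domain was not analysed here, because no protein sequences were used.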

Additional observations from a re-analysis of the deposited data

How the results depend on the processing

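The comparisons of ZNF genes with other genes of chromosome 19 kept their direction under every alternative run: peak filters, equal list sizes, a 2 kb window, symbols without a letter, and left-out libraries. Leaving out 1 library in turn gave 15.7 to 16.7 points for the gene-end share, -53.0 to -51.7 per Mb for inside density and -15.6 to -14.3 points for the far-end share, each with p = 0.0625, the smallest exact sign-flip permutation p for 5 libraries. Without silenced library 3 and control library 2, an alternative chosen after seeing the data, these were 15.6, -52.7 and -15.2 with an exact permutation p = 0.125, again the smallest possible. Between groups, the difference in ZNF genes with a gene-end peak (2) reversed to -8 with an FDR of at most 1e-05, -3.33 with heights of at least 4 and -1 with equal lists, and ran from 0.667 to 3.17 with a library left out. The inside density difference (2.44 per Mb) reversed to -0.254 with the FDR limit and -1.83 with heights of at least 4, and ran from -3.4 (without control library 2) to 6.14 per Mb, with -0.102 without silenced library 1. None of these differences passed the exact permutation test, and the cause was not tested. The rank fit called 0 genes with a 2 kb window, 1 to 2 with a library left out (2 without control library 2) and 2 without both libraries. It called 0 ZNF genes under the main design. Members called in only 1 group numbered 0 to 1 with a library left out, and 1 without both libraries.

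Same-numbered libraries did not deviate together in rank scores (correlations of 0.025, -0.0093 and 0.017), so the ranks show no pairing by number. Whether the libraries were prepared as pairs cannot be told from ranks. With a replicate block the differences stayed at 2 genes and 2.44 per Mb (exact sign-flip permutation p = 0.75 each), and limma called 1 gene and 0 ZNF genes, with 8 in place of 10 at an unadjusted p under 0.05. A gap of 250 kb gave 12 clusters of at least 5 members and a gap of 1 Mb gave 9. Low lists limit what absence means: a start without a listed peak may be open below the authors' threshold.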
